A study of Mus musculus with 12 samples.

Results

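The proteasome subunit genes of the mouse were followed here: the genes whose symbol is Psma, Psmb, Psmc, Psmd or Psme and a number. Within this family the genes were taken by symbol, and 43 of the 24062 gene symbols counted in each library matched. The family and the gene lists below were chosen with earlier results of these data known. By particle they were 7 subunits of the α ring, 4 of the β ring without an active site, 3 constitutive catalytic subunits (Psmb5, Psmb6 and Psmb7), 3 immunoproteasome subunits (Psmb8, Psmb9 and Psmb10) and 2 tissue-restricted subunits (Psma8 and Psmb11). The regulatory particle gave 6 ATPases, 3 other base subunits, 8 lid subunits and 3 base assembly chaperones, and the activators of the core gave 4 genes.

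The proteasome degrades proteins that carry a ubiquitin chain. A barrel of stacked α and β rings holds the proteolytic sites inside, and the 19S regulatory particle, made of a base and a lid, binds the substrate, removes the chain and feeds the unfolded protein in with the help of a ring of ATPases. Interferon and immune cells switch the catalytic subunits to the immunoproteasome set, which makes peptides suited to MHC class I, and in growing liver and tumor cells the whole complex serves the turnover of newly made proteins.

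The study asked what dietary tryptophan does to MYC-driven liver tumors. Bulk polyA RNA was sequenced from 12 mice, 1 library per mouse and 3 per group. MYC-ON livers came from LAP-tTA/TRE-MYC males on the FVB background, in which a liver promoter drives the transactivator and MYC was switched on at birth by taking away doxycycline. The control diet was given to mice 101, 102 and 103, and the diet without tryptophan (No-Trp) to mice 105, 107 and 108, for 21 days. HCC53N xenografts grew in NOD-SKID (NOD SCID) hosts, which lack T and B cells, from 1 line of mouse liver tumor cells with p53 knocked out and mutant NRAS. The labels also call these cells FVB MYC ON, so every library of both models carried the MYC label. Hosts 40, 41 and 43 ate the control diet, hosts 35, 36 and 37 the other, again for 21 days. The study's methods name female hosts, with repeats in males, and do not say which were sequenced. The labels give an age of 45 days for MYC-ON males in a comparison with wild-type mice and none for the hosts. Values below follow the order of these mouse numbers, with the control diet before the No-Trp diet.

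Libraries held 14660963 to 26085349 reads on genes, and the 43 genes took between 0.424% and 0.633% of each. The ribosomal RNA gene Rn45s took 12.1% of the gene reads of liver 101, 2.22% of those of liver 102 and at most 0.758% elsewhere. The tissue labels were checked with 5 hepatocyte markers (Alb, Ttr, Apoa1, Hnf4a and Serpina1a). Their summed level was 7349 to 32980 CPM in control livers, 38180 to 103100 CPM in No-Trp livers and 292 to 773 CPM in the xenografts, where CPM is the count of a gene brought to a common library size, with the sizes scaled by the trimmed mean of M-values. These are bulk samples, so fewer cells of a type and less RNA per cell cannot be told apart.

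The starts of 6 genes on which the results below turn are printed from RefSeq (assembly GRCm38.p6), each as the 300 bases from 250 before to 50 after the gene's start, in the direction of transcription. The immunoproteasome genes are shown because they replace catalytic subunits and Psmb10 had the lowest diet difference of the members in livers. Psmd8, Psmd9 and Psme3 are examples of members whose diet effect differed between the models. Psmc1, Psmc4, Psmd4 and Psme4 also differed and are not printed. Capitals mark matches, on either strand, to 6 short motifs.
Psmb8: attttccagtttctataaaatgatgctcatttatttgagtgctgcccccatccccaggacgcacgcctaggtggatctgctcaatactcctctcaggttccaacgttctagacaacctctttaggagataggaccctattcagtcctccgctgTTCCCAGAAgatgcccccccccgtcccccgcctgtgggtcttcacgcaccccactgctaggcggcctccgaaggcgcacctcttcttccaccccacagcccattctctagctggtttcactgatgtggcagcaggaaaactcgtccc
Psmb9: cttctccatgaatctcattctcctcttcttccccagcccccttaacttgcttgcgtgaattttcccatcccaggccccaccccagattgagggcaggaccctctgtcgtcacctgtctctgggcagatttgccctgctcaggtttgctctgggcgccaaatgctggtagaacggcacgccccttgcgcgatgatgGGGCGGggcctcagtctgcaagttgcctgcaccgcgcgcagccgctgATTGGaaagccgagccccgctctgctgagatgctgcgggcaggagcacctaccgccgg
Psmb10: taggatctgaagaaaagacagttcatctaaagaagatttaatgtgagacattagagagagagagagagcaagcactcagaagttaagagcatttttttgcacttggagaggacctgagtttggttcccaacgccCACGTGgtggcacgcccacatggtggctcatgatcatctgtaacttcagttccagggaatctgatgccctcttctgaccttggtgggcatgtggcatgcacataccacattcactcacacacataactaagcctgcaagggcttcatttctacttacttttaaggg
Psmd8: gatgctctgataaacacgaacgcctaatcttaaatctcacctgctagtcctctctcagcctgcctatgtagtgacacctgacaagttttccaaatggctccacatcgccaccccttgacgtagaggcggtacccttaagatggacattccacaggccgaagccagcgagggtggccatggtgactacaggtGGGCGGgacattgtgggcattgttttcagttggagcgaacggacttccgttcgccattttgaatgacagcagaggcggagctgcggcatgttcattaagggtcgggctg
Psmd9: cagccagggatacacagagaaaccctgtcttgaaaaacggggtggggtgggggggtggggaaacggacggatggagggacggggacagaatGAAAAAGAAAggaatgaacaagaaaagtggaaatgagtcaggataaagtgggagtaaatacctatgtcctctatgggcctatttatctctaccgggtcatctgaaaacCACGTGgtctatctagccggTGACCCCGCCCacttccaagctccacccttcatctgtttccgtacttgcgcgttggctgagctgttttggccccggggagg
Psme3: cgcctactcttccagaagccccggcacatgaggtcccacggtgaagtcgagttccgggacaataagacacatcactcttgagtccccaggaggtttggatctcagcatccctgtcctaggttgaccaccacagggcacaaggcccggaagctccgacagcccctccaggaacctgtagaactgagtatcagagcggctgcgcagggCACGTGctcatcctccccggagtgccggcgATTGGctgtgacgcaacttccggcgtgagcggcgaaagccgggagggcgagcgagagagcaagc

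These windows lie at chr17:34197945-34198244 (+ strand), chr17:34187281-34187580 (- strand), chr8:105938343-105938642 (- strand), chr7:29180624-29180923 (- strand), chr5:123227940-123228239 (+ strand) and chr11:101315963-101316262 (+ strand), in the same order. The motifs searched on both strands were the antioxidant response element core TGACNNNGC, which NRF1 and NRF2 bind, the interferon-γ activated site (GAS) TTCNNNGAA, the core of the interferon-stimulated response element (ISRE), which is GAAA, any 2 bases and GAAA, the E-box CACGTG, which MYC binds, the CCAAT box CCAAT and the GC box GGGCGG. Psmb8 held a GAS from 97 to 89 bases before its start. Psmb9 held a GC box and, on the other strand, a CCAAT box. The E-box of Psmb10 began 116 bases before its start, that of Psmd9 51 bases and that of Psme3 44 bases. Psmd9 also held an ISRE core and an antioxidant response element core, the last of which overlapped a GC box on the other strand.

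Windows were found for 36 of the 43 genes, 39 windows in all. The E-box was in 10.3% of them, against 7.15% of all 32851 RefSeq promoter windows of this length. The members with an E-box were Psma4, Psmb10, Psmd9 and Psme3, all but Psma4 printed above, so the printed genes are not typical in this. For the antioxidant response element core the shares were 15.4% and 12.4%, for the ISRE core 10.3% and 3.44%, for GAS 5.13% and 8.3%, for the CCAAT box 35.9% and 37.4%, and for the GC box 59% and 35.7%. Windows of the same gene overlap, and a match describes letters, not binding. In the GENCODE annotation Psmb8 and Psmb9 lie 9956 bases apart on chromosome 17. There the start of Psmb9 is 211 bases from that of Tap1, the antigen peptide transporter, on the opposite strand, and their exons overlap. This start of Psmb9 lies outside the window printed above, which follows RefSeq.

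Levels were compared between subunits per length of mRNA. On the scale of CPM per kb of mRNA, Psma7 of the α ring was first in each group, with group means of 237.5 ± 63.2 in control livers, 262.7 ± 33.6 in No-Trp livers, 232.9 ± 38.9 in control xenografts and 176.9 ± 21.7 in No-Trp xenografts (SD, n = 3 in each). Psmb6 and Psmb3 came next in control livers at 205.8 ± 45.2 and 202.4 ± 63.0. Psma7 was above both in each of the 3 control livers, and differences between genes were not tested. Psmb5, the chymotrypsin-like subunit, was the lowest of the 14 constitutive core genes in each group, at 45.2 ± 12.3, 43.3 ± 9.24, 29.1 ± 4.47 and 25.1 ± 4.07 CPM per kb. The core genes thus spanned 5.26-fold in control livers, 6.07-fold in No-Trp livers, 7.995-fold in control xenografts and 7.04-fold in No-Trp xenografts, although their products enter the particle in equal number. Psmb5, with an mRNA of 899 bases, has a near-identical transcript of another gene that matches over up to 796 bases. It also shares 109 exon bases with Mir686 on the same strand. Psma4, Psma5 and Psmb3 are among other core genes with such copies. Reads that fit more than 1 gene could be missing from these counts. The effect on the level of Psmb5, and on its ratio to Psmb8 below, was not tested.

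The regulatory particle spanned 3.52-fold in control livers. Its 17 base and lid genes ran from 36.7 CPM per kb for Psmd11 to 129 for Psmd7, with a median of 86.6 against 146.9 for the 14 core genes. Psmb10 stood at 113 ± 39.8 CPM per kb in control livers, among the core genes, and at 51.5 ± 27.1 in No-Trp livers, its rank among the members moving from 14 to 31. Psmb8 and Psmb9 lay far lower in each group, at 12.02 and 9.46 CPM per kb in control livers.

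**Figure D1:**
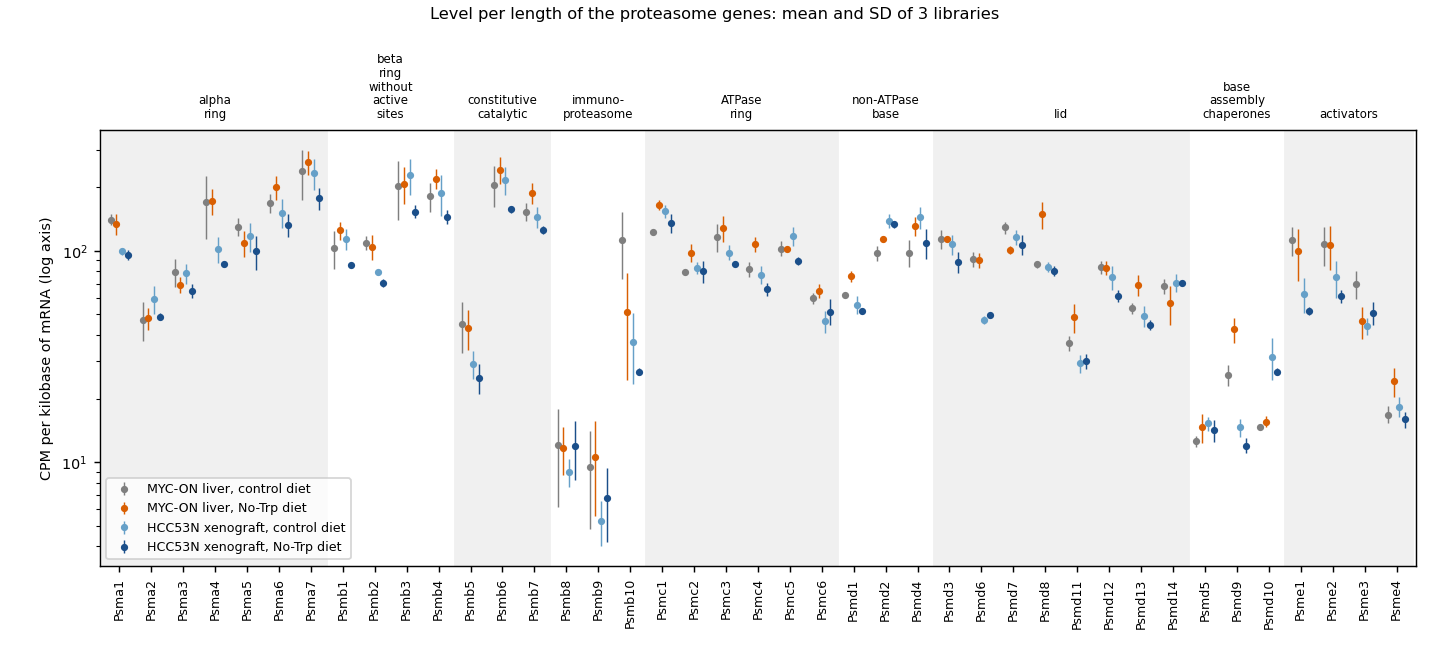
Level of 41 subunit genes per group in CPM per kb of mRNA (y axis, log scale), genes on the x axis by particle, without Psma8 and Psmb11. Points are means and bars the SD of 3 libraries, and Psma7 sits at the top and Psmb5 at the foot of the constitutive core in the 4 groups, and Psmb8 and Psmb9 lie below it.

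Psma8, the testis form of an α subunit, and Psmb11, the β subunit of the thymic cortex, were near the floor. Psma8 had 57, 16 and 41 reads in control livers, 29, 17 and 23 in No-Trp livers, 5, 7 and 2 in control xenografts and 0, 5 and 7 in No-Trp xenografts. Psmb11 had at most 7 reads in any library and entered no test.

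The first comparison asked which subunit genes differed between the diets in MYC-ON livers. The study reports lower liver weights and fewer, smaller tumors in MYC-ON mice on the No-Trp diet. In bulk liver RNA a different share of tumor tissue and a change within cells cannot be told apart. Of 42 tested, 2 rose and none fell (edgeR quasi-likelihood test, Benjamini-Hochberg adjusted over all genes, adjusted p of at most 0.05). Differences are No-Trp minus control, given ± SE from this fit. The 2 genes are 4.76% of the members tested, against 25.3% of the 14122 genes tested, 13.3% of which rose. Psmd8, a lid subunit, and Psmd9, an assembly chaperone, were the 2 that passed. Diet groups did not overlap for 15 members, 12 of them higher on the No-Trp diet, where 48.6% of all genes were free of overlap and 23.6% were so and higher. The 12 were Psmb7, Psmc1, Psmc2, Psmc4, Psmd1, Psmd2, Psmd4, Psmd8, Psmd9, Psmd11, Psmd13 and Psme4, and the 3 lower ones were Psmb10, Psmd7 and Psme3. The median log2 difference of the members was 0.12 and that of all genes near 0, with 29 members above 0 and 13 below, and with scaling by library totals alone the members' median was -0.17 beside -0.30 for all genes. Both calls were lost without liver 101, without liver 103 or without liver 105, each leaving 0 members past the test, and with library totals. Across the 6 fits without 1 liver, between 0.0562% and 28.9% of all genes passed, against 25.3% with every liver. For 36 of the 40 members that did not pass, the 95% interval of the log2 difference lay within 1 of 0.

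In the xenografts none of 41 members passed by edgeR or by DESeq2. The background was low too, with 0.374% of 14704 genes past the test. At an unadjusted p under 0.05 edgeR gave 6 of the 41 members, against 16.9% of all genes. The log2 difference was below 0 for 35 of the 41, with a median of -0.22 against near 0 for all genes, and with library totals it was below 0 for 30. Groups were apart for 11 members, 10 of them lower on the No-Trp diet, beside 22.6% of all genes apart and 11.8% apart and lower. The interval lay within 1 of 0 for 39 of 41 members. Reads not assigned to a gene made up 28.5% to 39.4% of control xenograft libraries and 26.4% to 26.8% of No-Trp ones. The part of this difference between the libraries in the levels was not tested.

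**Figure D2:**
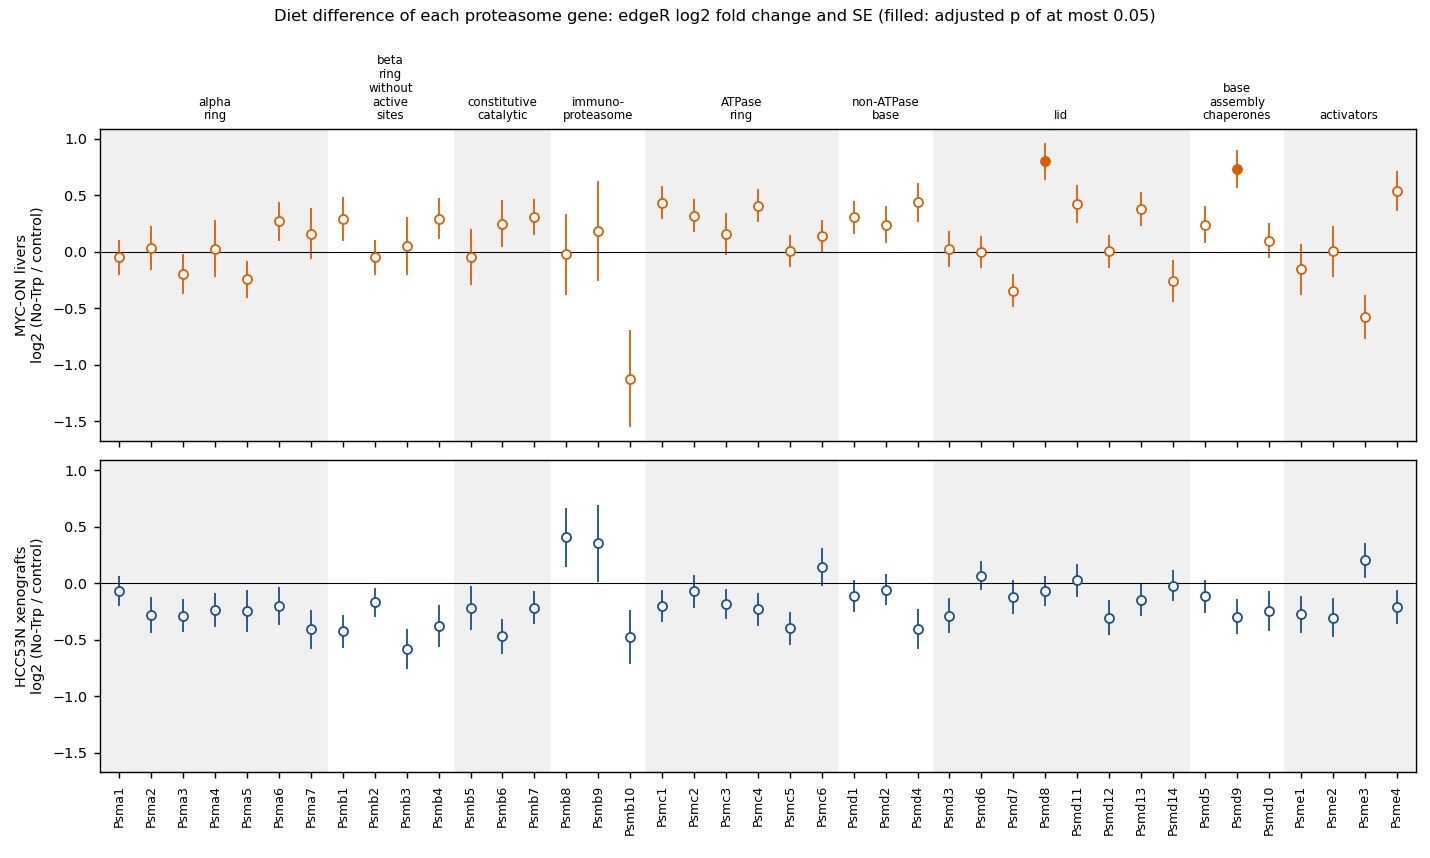
Log2 difference between No-Trp and control diet (y axis) for 41 members by particle (x axis), livers above and xenografts below, with bars of 1 SE and filled points where the adjusted p was at most 0.05. In livers Psmd8 and Psmd9 are the filled points and Psmb10 lies lowest, and in xenografts 35 of 41 points lie below 0 (30 with scaling by library totals).

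The α ring, whose N-terminal tails close the gate of the core, did not respond past the test in either model. In livers the 7 genes had log2 differences between -0.24 and 0.27, and for each the diet groups overlapped. Psma6 had 195, 161 and 169 CPM in control livers and 186, 201 and 239.9 in No-Trp livers, a log2 difference of 0.27 ± 0.17, adjusted p = 0.268. At the other end Psma5 had 178, 146 and 159 CPM against 128, 119.6 and 156, a difference of -0.24 ± 0.17, adjusted p = 0.306. For both genes liver 101 was the highest control and liver 108 the highest No-Trp liver.

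The xenografts had a log2 difference below 0 for 7 of 7 α genes, with 1 at an unadjusted p under 0.05 (6 of 7 below 0 with library totals). Psma7 had 241, 173 and 225 CPM on the control diet and 149, 185 and 151 on the No-Trp diet, a log2 difference of -0.41 ± 0.17, adjusted p = 0.281. The control library 41 lay within the No-Trp range, so the groups overlapped. Psma1, the smallest difference, had 125, 117 and 117 CPM against 111, 111 and 122, a difference of -0.07 ± 0.13, adjusted p = 0.827.

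Among the β subunits without an active site, none of 4 passed in either model. In livers Psmb4 had 252, 193 and 196 CPM on the control diet and 230.1, 262 and 286 on the No-Trp diet, a log2 difference of 0.29 ± 0.18, adjusted p = 0.262, and Psmb2 had the lowest difference at -0.05 ± 0.15, adjusted p = 0.842. Control liver 101 was the highest control for both. In xenografts 3 of the 4 were apart, each lower on the No-Trp diet, where 11.8% of all genes were apart and lower. Psmb3 had 181, 138 and 206 CPM in controls and 108, 122 and 123 on the No-Trp diet, the lowest log2 difference of any member there (-0.58 ± 0.18, adjusted p = 0.167). Psmb1 had 212, 174 and 215 against 148, 153 and 149 CPM, with a difference of -0.43 ± 0.14, adjusted p = 0.197. Neither passed the test.

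The constitutive catalytic subunits carry the chymotrypsin-like (Psmb5), caspase-like (Psmb6) and trypsin-like (Psmb7) sites. Psmb5 had 53.4, 34.5 and 33.9 CPM in control livers and 38.6, 30.8 and 47.4 in No-Trp livers, and 30.3, 22.2 and 26.1 CPM in control xenografts and 19.2, 26.5 and 22.02 in No-Trp xenografts. Its groups overlapped in both models, with log2 differences of -0.05 ± 0.25, adjusted p = 0.903 and -0.22 ± 0.19, adjusted p = 0.599. Psmb6 had 206, 139.6 and 147 CPM and 163, 196 and 219.6 in livers. In xenografts its values were 198, 147 and 174 CPM against 123, 123 and 131, each control above each No-Trp library. The log2 differences of Psmb6 were 0.25 ± 0.21, adjusted p = 0.402 in livers and -0.47 ± 0.15, adjusted p = 0.187 in xenografts.

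Psmb7 was the catalytic subunit whose liver groups were apart, with 195, 176 and 162 CPM on the control diet and 200.3, 206 and 247 on the No-Trp diet (0.31 ± 0.16, adjusted p = 0.193). Its xenografts gave 171, 148 and 186 CPM against 139, 151 and 147, and the groups overlapped (-0.22 ± 0.15, adjusted p = 0.486). The same libraries recurred at the top of the core. Of its 14 constitutive genes, liver 101 was the highest of the 6 livers for 7 and liver 108 for the other 7, and xenograft 40 was the highest of the 6 xenografts for 10 and xenograft 43 for the other 4. Livers 101 and 108 and xenografts 41 and 43 carry a resubmission mark in the file names, and xenograft 40 is named in another pattern. Among the xenografts the mark is on control libraries alone. Whether these marks bear on the levels was not tested beyond the fit with the mark as a covariate, which called 6 members in livers and 0 in xenografts.

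The immunoproteasome subunits replace the 3 catalytic ones: Psmb8 takes the place of Psmb5, Psmb9 that of Psmb6 and Psmb10 that of Psmb7. None of the 3 passed the test for diet in either model. Their log2 differences in livers were -0.02 ± 0.36, adjusted p = 0.97 for Psmb8, 0.18 ± 0.44, adjusted p = 0.779 for Psmb9 and -1.12 ± 0.43, adjusted p = 0.0928 for Psmb10.

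Psmb10 had 208, 110.2 and 127 CPM in control livers and 64.4, 33.6 and 105 in No-Trp livers. Each No-Trp liver was below each control, with 108 the nearest to them. The difference missed the threshold with edgeR and passed with DESeq2, and it was the lowest value of any member in livers. In xenografts Psmb10 had 69.4, 37.1 and 39.4 CPM against 36.4, 35.1 and 34.02, again without overlap (-0.48 ± 0.24, adjusted p = 0.35).

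Psmb8 and Psmb9 had the same high libraries. In livers Psmb8 gave 14.1, 30.7 and 13.9 CPM on the control diet and 18.7, 14.3 and 24.1 on the No-Trp diet, and Psmb9 gave 9.26, 20.01 and 9.11 against 12.3, 8.79 and 21.99 CPM, so that liver 102 among controls and liver 108 among No-Trp livers stood above the rest. Xenograft levels of Psmb8 were 15.3, 16.4 and 12.1 CPM in controls and 17.3, 14.7 and 26.3 on the No-Trp diet, with a log2 difference of 0.41 ± 0.26, adjusted p = 0.472. Those of Psmb9 were 8.29, 7.98 and 5.18 against 7.26, 7.04 and 13.2 CPM, with a difference of 0.35 ± 0.34, adjusted p = 0.644. Xenograft 37 was the highest of the 6 for both genes, and the diet groups overlapped.

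Marker and response lists were set beside these libraries. The summed level of 15 interferon response genes was highest in livers 102 (503.9 CPM) and 108 (524.8 CPM), against 310.3 to 406.9 CPM in the other livers. In xenograft 37 it was 224 CPM, level with xenograft 36 and below xenografts 35, 40 and 41 (256.7 to 297.7 CPM). Of the class I antigen processing genes listed below, Tap1 (19.8 CPM), Tap2 (23.4 CPM), Nlrc5 (13.9 CPM) and H2-K1 (129.7 CPM) were highest of the xenografts in 37. Tapbp, B2m, Erap1, Calr, Pdia3 and H2-D1 were not. The 7 T and NK cell markers summed to 9.63 CPM in xenograft 37 and to 0.901 to 2.31 CPM in the other xenografts. The NK cell markers Ncr1 and Klrb1c were at 0 in xenograft 43 and Klrb1c also in xenograft 40. Each of the 7, T cell markers included, was highest of the xenografts in 37, from few reads (58 for Cd8a and 10 for Cd3d). In livers the 7 markers summed to 4.67 to 5.64 CPM in controls and to 2.65 to 5.67 CPM on the No-Trp diet. The 3 neutrophil markers S100a8, S100a9 and Retnlg summed to 106.8, 44.97 and 103.3 CPM in control livers and to 13.04, 7.32 and 60.7 CPM in No-Trp livers. Within each diet that is the order of the livers for Psmb10, with 101 and 108 highest, although the neutrophil sum of 108 lay above that of 102, and none of the 3 markers passed (median log2 difference -1.60). Ptprc, the pan-leukocyte marker, had 15.9 to 24.3 CPM in control livers and 11.3 to 16.9 CPM in No-Trp livers. The part of these cells and of interferon in the levels of Psmb8, Psmb9 and Psmb10 was not tested. The Psmb9 exons overlap those of Tap1 by 212 bases on the opposite strand, and the strand setting of the counting is not given in the sources used here.

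Set against its constitutive partner per length, Psmb10 was the one that parted by diet in livers. The ratio of Psmb10 to Psmb7 was 0.942, 0.554 and 0.691 in control livers and 0.284, 0.144 and 0.375 in No-Trp livers, without overlap (means 0.729 ± 0.197 and 0.268 ± 0.116, SD, n = 3 each, two-sided exact permutation test p = 0.1, adjusted p = 0.3 over 6 ratios). With 3 against 3 the smallest p that this test can give is 0.1. The ratio of Psmb8 to Psmb5 was 0.146, 0.49 and 0.226 in control livers and 0.268, 0.256 and 0.281 in No-Trp livers, which fell inside the control range. For Psmb9 to Psmb6 the livers overlapped too, at 0.0266, 0.0846 and 0.0364 against 0.0445, 0.0265 and 0.0591.

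In xenografts the ratio of Psmb9 to Psmb6 was 0.0247, 0.0321 and 0.0176 on the control diet and 0.0348, 0.0338 and 0.0598 on the No-Trp diet, again without overlap (exact permutation p = 0.1, adjusted p = 0.3, n = 3 each). Psmb8 to Psmb5 gave 0.28, 0.406 and 0.255 against 0.498, 0.306 and 0.661, with overlap, and Psmb10 to Psmb7 gave 0.358, 0.222 and 0.187 against 0.232, 0.205 and 0.205. On this scale Psmb10 transcripts in control livers came near those of Psmb7, whereas Psmb9 transcripts never passed 0.0846 of those of Psmb6.

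**Figure D3:**
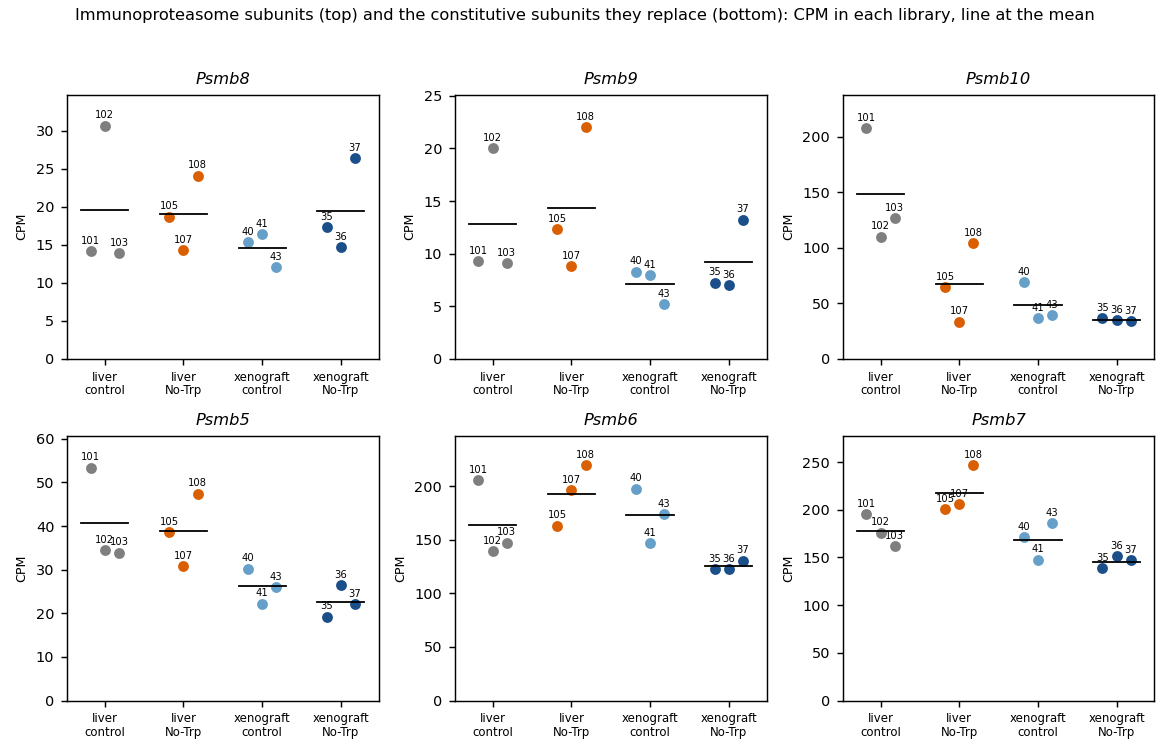
CPM in each library for the immunoproteasome subunits (upper row) and the constitutive subunits they replace (lower row), 1 point per mouse with its number and a line at the mean of 3. Psmb10 lies lower in the No-Trp livers than in the control livers, liver 102 and xenograft 37 stand high for Psmb8 and Psmb9, and each No-Trp liver lies above each control for Psmb7.

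The base of the regulatory particle unfolds substrates. All 6 ATPase genes had a log2 difference above 0 in livers (3 of 6 with library totals), 3 of them without overlap, and none passed. Of all genes tested in livers, 48.6% were without overlap and 23.6% were so and higher. Psmc1 had 193, 203 and 192 CPM in control livers and 248, 265 and 274 in No-Trp livers, the highest difference of the ring at 0.44 ± 0.15, adjusted p = 0.0649. Psmc4 followed with 128, 110.5 and 115 against 145, 150.1 and 170.1 CPM and 0.41 ± 0.15, adjusted p = 0.078. Every No-Trp liver was above every control for both genes. Psmc5 overlapped, with 147, 126 and 132 against 132, 138 and 133 CPM (0.01 ± 0.14, adjusted p = 0.976).

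In xenografts 5 of the 6 ATPases were below 0 (4 of 6 with library totals). Psmc5 and Psmc3 were lower without overlap, as were 11.8% of all genes. Psmc5 had 163, 135 and 164 CPM in controls and 112, 119 and 123 on the No-Trp diet (-0.40 ± 0.14, adjusted p = 0.221). Psmc6 was the ATPase above 0, with 89.9, 107 and 114 against 96.9, 121 and 128 CPM (0.14 ± 0.17, adjusted p = 0.709). Its groups overlapped. Psmc1 has 2 near-identical transcripts of other genes, so some of its reads could belong to copies.

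The other base subunits are the scaffolds Psmd1 and Psmd2 and the ubiquitin receptor Psmd4. For each of the 3, every No-Trp liver lay above every control, as for 23.6% of all genes, and none passed. Psmd4 had 152, 120.5 and 119 CPM on the control diet and 157, 174 and 193 on the No-Trp diet (0.44 ± 0.17, adjusted p = 0.0938). Psmd2 had 261, 302 and 302 against 328, 351 and 333 CPM (0.24 ± 0.16, adjusted p = 0.301), and Psmd1 had 193, 195 and 191 against 230.2, 253 and 224 CPM (0.30 ± 0.15, adjusted p = 0.157). In xenografts the order of Psmd4 was turned, with 206, 165 and 204 CPM in controls and 123, 143 and 171 on the No-Trp diet, where libraries 41 and 37 overlapped (-0.40 ± 0.17, adjusted p = 0.289). Psmd2 overlapped there with 428, 426 and 373 against 378, 410.5 and 397 CPM (-0.06 ± 0.14, adjusted p = 0.859).

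The lid, which holds the deubiquitinase, had 1 gene past the test in livers. Psmd8, a subunit that joins the lid last, had 128, 138 and 135 CPM in control livers and 209.8, 211 and 269 in No-Trp livers, so that each No-Trp liver lay above each control. It rose, with a log2 difference of 0.80 ± 0.16, adjusted p = 0.0222, or 1.74-fold. With 1 library left out the call held in 3 of 6 fits, the adjusted p reaching at most 0.0931. In xenografts Psmd8 had 134, 121 and 132 against 115, 128 and 129 CPM, with overlap (-0.07 ± 0.13, adjusted p = 0.834).

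Psmd7, the inactive partner of the deubiquitinase, was the lid gene with the lowest liver difference. It had 193, 201 and 219 CPM in controls and 152, 159.6 and 166 on the No-Trp diet, apart from each other but short of the threshold (-0.34 ± 0.14, adjusted p = 0.117). Psmd14, the deubiquitinase itself, had 114, 97.2 and 104 against 88.1, 68.3 and 105 CPM in livers, with overlap. In xenografts Psmd6 had 66.5, 62.2 and 67.02 against 70.6, 67.5 and 68.6 CPM, each No-Trp library just above each control (0.07 ± 0.13, adjusted p = 0.834). Psmd12 had 133, 130.4 and 164 against 108, 119 and 122 CPM, each No-Trp library below (-0.31 ± 0.15, adjusted p = 0.348). Neither passed.

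Psmd9, a chaperone that holds an ATPase pair during assembly of the base and is not part of the finished particle, was the other gene past the test. It had 68.6, 58.6 and 73.8 CPM in control livers and 96.96, 107 and 127 in No-Trp livers, each of the latter above each control. The rise had a log2 difference of 0.73 ± 0.17, adjusted p = 0.0266, or 1.66-fold. It held in 2 of 6 fits with 1 library left out, the adjusted p reaching at most 0.0894. In xenografts it had 39.9, 33.6 and 40.4 against 28.9, 33.9 and 30.5 CPM, with overlap (-0.30 ± 0.15, adjusted p = 0.367). The chaperones Psmd10, known as gankyrin and raised in liver cancers, and Psmd5 overlapped in livers, with 21.3, 20.6 and 20.9 against 23.00, 20.7 and 22.9 CPM for Psmd10 and 51.7, 58.3 and 55.1 against 54.2, 63.8 and 74.8 CPM for Psmd5.

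The activators dock on the ends of the core. Psme1 and Psme2 form the interferon-inducible 11S cap, Psme3 forms a cap of its own in the nucleus, and Psme4 is a single-chain nuclear activator. None of the 4 passed in either model. Psme4 had 97.5, 116 and 113 CPM in control livers and 158, 181 and 131 in No-Trp livers, each No-Trp liver above the controls (0.54 ± 0.17, adjusted p = 0.0583). Psme3 went the other way, with 155, 196 and 208 CPM against 138, 99.1 and 133, each No-Trp liver below (-0.58 ± 0.20, adjusted p = 0.065). In xenografts Psme3 had 104, 124 and 123 against 117, 146 and 145 CPM (0.20 ± 0.16, adjusted p = 0.549) and Psme4 104, 126 and 126 against 110.1, 93.3 and 106 CPM (-0.21 ± 0.15, adjusted p = 0.506), both with overlap.

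Psme1 had 144, 124 and 105 CPM in control livers and 99.1, 87.8 and 145 in No-Trp livers, and Psme2 had 126, 101 and 82.4 against 90.5, 86.6 and 129.9 CPM. Liver 108 was the highest No-Trp liver for both, and the groups overlapped (-0.15 ± 0.23, adjusted p = 0.633 for Psme1 and 0.00 ± 0.23, adjusted p = 0.99 for Psme2). In xenografts the controls were 84.9, 62.1 and 61.7 CPM for Psme1 against 57.1, 55.8 and 60.6, and 88.6, 63.8 and 63.8 CPM for Psme2 against 54.1, 59.1 and 62.7, both without overlap (-0.28 ± 0.16, adjusted p = 0.435 and -0.31 ± 0.17, adjusted p = 0.402). Reads of Psme2 can be shared with the near-identical Psme2b, which was counted as a gene of its own.

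**Figure D4:**
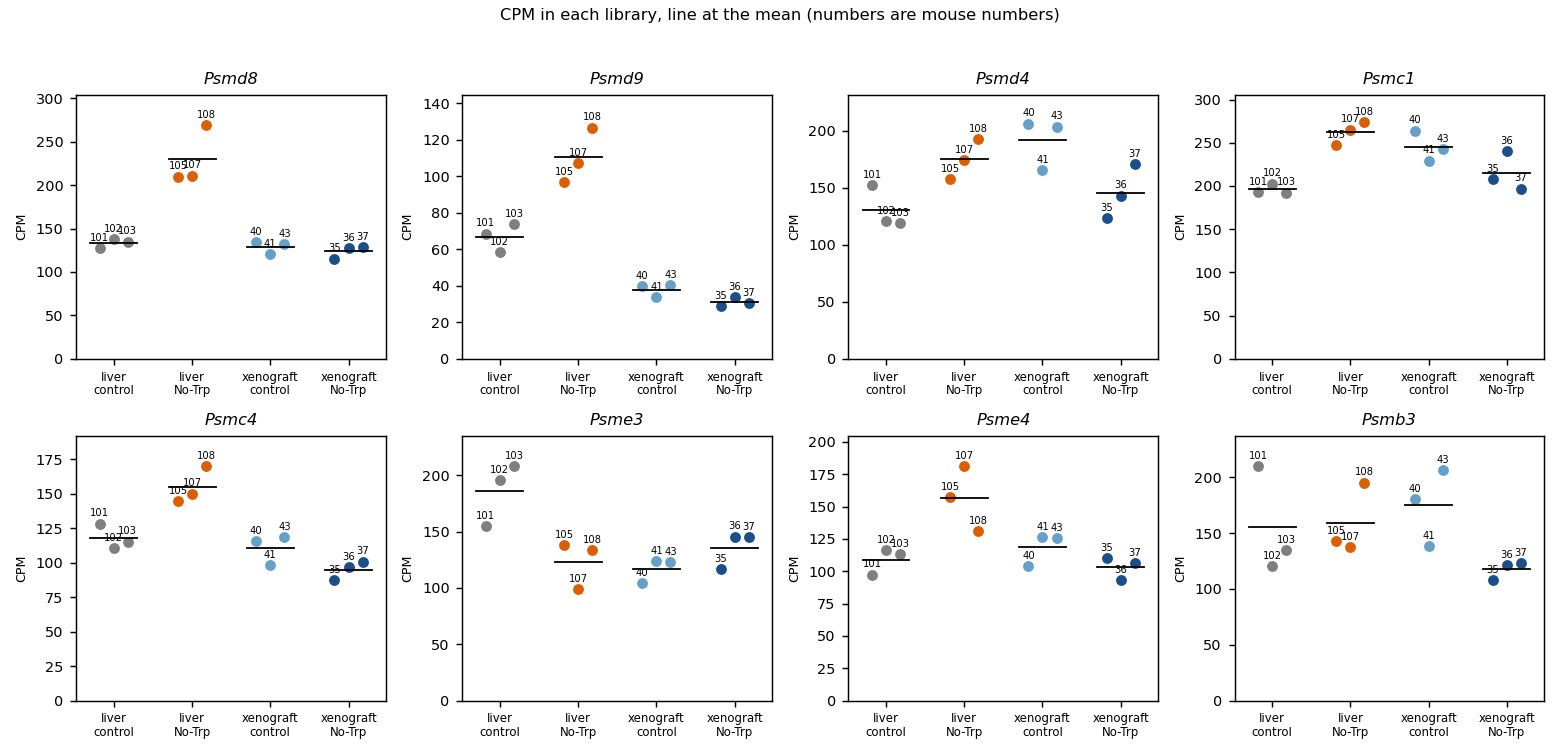
CPM in each library for the 7 members whose diet effect differed between the models and for Psmb3, 1 point per mouse with its number and a line at the mean of 3. No-Trp livers lie above control livers for Psmd8, Psmd9, Psmd4, Psmc1, Psmc4 and Psme4 and below them for Psme3, while xenograft groups overlap for all but Psmb3.

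The next comparison tested whether the diet effect differed between the models, as the log2 effect in xenografts minus that in livers. Of 42 members 7 passed, or 16.7%, against 15.6% of the 15472 genes tested. A lower effect in xenografts was found for 6 of them, where 7.39% of all genes passed in that direction. These were 2 ATPases (Psmc1 and Psmc4), the ubiquitin receptor Psmd4, the lid subunit Psmd8, the chaperone Psmd9 and the activator Psme4, and the 1 with a higher effect was the activator Psme3. Psmd9 had a difference of -1.01 ± 0.21, adjusted p = 0.0137 and Psmd8 one of -0.84 ± 0.19, adjusted p = 0.0168, and both passed in 12 of 12 fits with 1 library left out. The other 5 lost the call in most of these fits, Psmc1 and Psmc4 passing in 1 of 12 each, Psme3 and Psme4 in 3 of 12 each and Psmd4 in 4 of 12. Psmd4 had -0.82 ± 0.24, adjusted p = 0.0385, Psme4 -0.73 ± 0.22, adjusted p = 0.0433 and Psme3 0.81 ± 0.24, adjusted p = 0.0438. With library totals the 7 kept their direction and 1 of them, Psme3, passed, while the median over the members went from -0.30 to 0.05 and that over all genes from 0.03 to 0.41. Of the immunoproteasome genes none passed, Psmb10 having 0.67 ± 0.53, adjusted p = 0.416.

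The models were then compared within each diet, as xenograft minus liver. They differ in host, tissue and cell line at once, and possibly in the sex of the mice, and these cannot be told apart. On the control diet 15 of 42 members passed, 4 higher and 11 lower in xenografts, against 59.5% of all genes past the test and 28.7% past it and lower. On the No-Trp diet 26 passed, 1 higher and 25 lower, against 59.6% and 26.4%. Libraries of the models were apart for 18 members on the control diet and for 31 on the No-Trp diet, beside 65.1% and 66.9% of all genes. The median log2 difference was -0.14 (all genes 0.01) on the control diet and -0.55 (all genes 0.15) on the No-Trp diet. Scaling by library totals turned these medians to 0.03 and -0.02 and those of all genes to 0.17 and 0.68, and left 9 members past the test on the No-Trp diet, 7 of them higher and 2 lower.

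Psmd9 was the member with the largest difference on the No-Trp diet apart from the sparsely read Psma8. It was lower in xenografts on the No-Trp diet (log2 difference -1.82 ± 0.16, adjusted p = 1.13e-06) and on the control diet (-0.82 ± 0.15, adjusted p = 0.000609), and it passed in 12 of 12 fits with 1 library left out in each. Psmd10 was higher in xenografts on both diets (1.11 ± 0.17, adjusted p = 0.000119 on the control diet and 0.79 ± 0.17, adjusted p = 0.0014 on the No-Trp diet), and on the control diet its levels were 21.3, 20.6 and 20.9 CPM in livers and 56.6, 40.6 and 38.1 in xenografts. The lid subunit Psmd6 was lower on both (-0.96 ± 0.12, adjusted p = 3.29e-05 and -0.86 ± 0.12, adjusted p = 7.41e-05), with 139, 121 and 121 CPM in control livers against 66.5, 62.2 and 67.02 in control xenografts. In these genes no liver overlapped a xenograft of the same diet. With library totals the calls of Psmd9 and Psmd10 held on both diets and that of Psmd6 on the control diet.

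Among the core genes Psma4 of the α ring was lower in xenografts on both diets, with 275, 165 and 157 CPM in control livers and 135, 102 and 119 in control xenografts (-0.74 ± 0.21, adjusted p = 0.00888). Psma2 overlapped, with 171, 117 and 125 against 177, 144 and 194 CPM. The 3 catalytic subunits were each lower on the No-Trp diet (-0.79 ± 0.23, adjusted p = 0.0108 for Psmb5, -0.62 ± 0.18, adjusted p = 0.0105 for Psmb6 and -0.58 ± 0.14, adjusted p = 0.00395 for Psmb7), and none of these 3 calls was kept with library totals. On the control diet Psmb5 passed among them (-0.63 ± 0.23, adjusted p = 0.0312), a call also lost with library totals. Psmb10 was lower on the control diet (-1.61 ± 0.38, adjusted p = 0.00345) and on the No-Trp diet (-0.94 ± 0.38, adjusted p = 0.0492), in the latter with overlap. With 1 library left out the call on the control diet held in 12 of 12 fits and that on the No-Trp diet in 4 of 12, where the adjusted p reached 0.265. Psmb8 did not pass on either diet.

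In the regulatory particle Psmd2 and Psmd4 were higher in control xenografts (0.50 ± 0.13, adjusted p = 0.00605 and 0.55 ± 0.17, adjusted p = 0.013). On the No-Trp diet neither passed, at 0.23 and -0.26. Psmd8 did not pass on the control diet (-0.05 ± 0.13, adjusted p = 0.779) and was lower in xenografts on the No-Trp diet (-0.89 ± 0.14, adjusted p = 0.000132). Psme1 was lower on both diets (-0.84 ± 0.20, adjusted p = 0.0037 and -0.94 ± 0.20, adjusted p = 0.00182). With library totals the No-Trp calls of Psma4, Psmb10, Psmd8 and Psme1 were lost and Psmd2 passed as higher on both diets. Psma8 was lower too, from reads of 16 to 57 in livers against at most 7 in xenografts on the control diet.

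**Figure D5:**
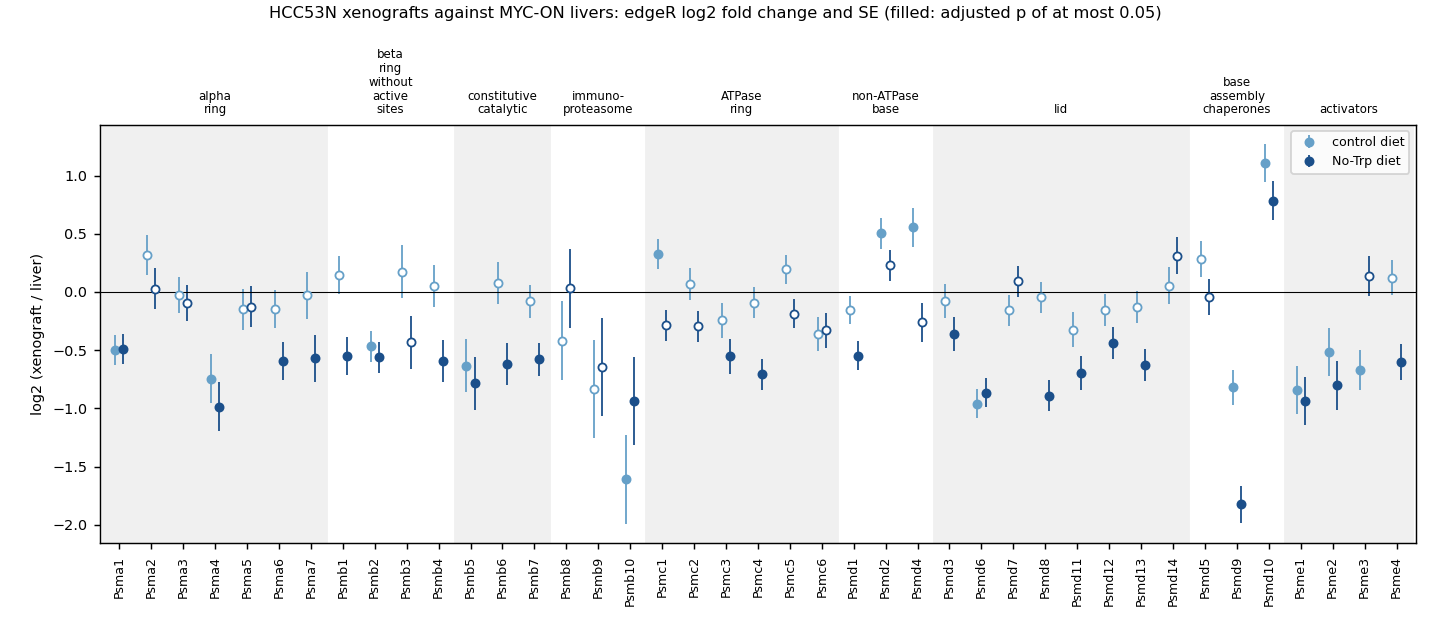
Log2 difference between xenografts and livers (y axis) on the control and the No-Trp diet for 41 members by particle (x axis), with bars of 1 SE and filled points where the adjusted p was at most 0.05. Psmd10 lies highest and Psmd9 on the No-Trp diet lowest, and with Psma8, which is not drawn, 35 of 42 members lie below 0 on the No-Trp diet (23 with library totals).

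Genes that act with the proteasome were taken as lists. Regulators of subunit transcription are Nfe2l1 (NRF1), which induces subunit genes when proteasome activity is short, Ngly1 and Ddi2, the enzymes that process it, and Nfe2l2 (NRF2). In livers 2 of these 4 rose on the No-Trp diet and none fell, where 13.3% of all genes rose. Nfe2l1 had 124, 137 and 136 CPM in control livers and 254, 342 and 266 in No-Trp livers and rose (1.14 ± 0.18, adjusted p = 0.0168). Ngly1 had 20.9, 26.1 and 18.4 against 48.4, 66.5 and 41.5 CPM and rose (1.28 ± 0.23, adjusted p = 0.0196). Ddi2 had 18.5, 37.02 and 34.1 against 51.7, 72.5 and 43.2 CPM and missed the threshold (0.92 ± 0.31, adjusted p = 0.0664). For all 3 each No-Trp liver lay above each control, as for 23.6% of all genes. The diet effect on Nfe2l1 was lower in xenografts than in livers (-0.83 ± 0.23, adjusted p = 0.0357), and its xenograft levels were 214, 215 and 209 CPM on the control diet and 205, 287 and 288 on the No-Trp diet. The list's median log2 difference in livers was 1.03.

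Of 12 assembly factors and partners none passed for diet in either model. The core chaperones Psmg2 and Psmg3, which build the α ring, came near in livers, with 75.9, 60.02 and 61.7 against 38.7, 25.2 and 48.6 CPM for Psmg2 (-0.80 ± 0.25, adjusted p = 0.0533) and 70.01, 46.7 and 46.8 against 26.5, 15.7 and 36.6 CPM for Psmg3 (-1.04 ± 0.32, adjusted p = 0.053). Each No-Trp liver lay below each control for both. Between the models, 7 of the 12 were lower in xenografts and 1 higher on the control diet, and 5 were lower on the No-Trp diet, or 66.7% and 41.7% past the test against the 59.5% and 59.6% of all genes. Of 12 ubiquitin and delivery genes 1 fell in No-Trp livers, Ubqln4, a shuttle for ubiquitinated proteins (-0.61 ± 0.15, adjusted p = 0.0298). That is 8.33% past the test, against 25.3% of all genes.

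Of all genes tested in livers 25.3% passed and 13.3% rose. In the class I antigen processing list 3 of 10 genes rose in No-Trp livers and none fell, with a median of 0.77. These were the light chain B2m (1.33 ± 0.39, adjusted p = 0.0444), the heavy chain H2-D1 (1.30 ± 0.32, adjusted p = 0.0306) and Nlrc5, the transactivator of class I genes (1.49 ± 0.36, adjusted p = 0.0294). Nlrc5 had 4.58, 11.2 and 5.07 CPM in control livers and 19.96, 19.4 and 18.4 in No-Trp livers, without overlap. Tap1, the neighbor of Psmb9, had 12.8, 25.4 and 13.5 against 21.1, 18.4 and 25.8 CPM, with overlap and the same high libraries as Psmb9, 102 and 108. Of 15 interferon response genes 1 rose, Stat2 (0.69 ± 0.20, adjusted p = 0.0454). In xenografts none of the genes of these 5 lists passed by edgeR, beside 1 of 4 regulators, 3 of 12 assembly genes, 2 of 12 ubiquitin genes, 3 of 10 class I genes and 1 of 15 interferon genes at an unadjusted p under 0.05, where 16.9% of all genes stood.

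Markers of other cell types moved with diet in livers. All 4 erythroid markers fell, with a median log2 difference of -5.14 and a summed level of 48.9 to 536 CPM in control livers and 7.27 to 19.6 CPM in No-Trp livers. Of 5 hepatocyte markers 2 rose, Ttr and Hnf4a, as did 1 of 6 macrophage and Kupffer cell markers (Vsig4, 0.87 ± 0.26, adjusted p = 0.0496) and 1 of 4 stellate cell and fibroblast markers (Dcn, 1.91 ± 0.29, adjusted p = 0.0163). Other genes of these last 2 lists went the other way. The macrophage markers Cd68 and Lyz2 were lower in No-Trp livers without overlap, and 2 of the 4 stellate cell and fibroblast markers were below 0. Of all genes tested in livers 25.3% passed. None of the T and NK cell, B cell, neutrophil, dendritic cell, endothelial or cholangiocyte markers passed there. The part of these shifts in the levels of the subunit genes was not tested.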

How the data were processed

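RNA-seq libraries of 12 mice were analysed, 3 per diet in MYC-ON livers and in HCC53N xenografts. Per the labels and the study's methods, the authors trimmed reads with Trim Galore, aligned them to mm10 with STAR 2.7.2b and counted reads per gene with HTSeq, after SAMtools 1.9. The deposited values are raw counts per gene symbol, and the strand setting of the counting is not given in the sources used here. The processing notes name further tools and builds, which were not assigned to a step.

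The members and lists were chosen with earlier results of these data known. Genes were filtered with filterByExpr, scaled by the trimmed mean of M-values and tested with the quasi-likelihood test of edgeR 4.0.16 (R 4.3.3), separately for the 6 livers, the 6 xenografts and, for the comparisons of models, all 12 libraries. Calls needed a p of 0.05 or less after Benjamini-Hochberg adjustment across every gene in the fit. Alternatives were DESeq2 1.42.0, limma 3.58.1 with voom, other scalings and filters, a fold threshold, the resubmission mark as a covariate and leaving out each library. Named genes were the catalytic, immunoproteasome and activator genes and, per particle and comparison, those with the highest and lowest log2 difference. Scripts were tested on simulated data. The common biological coefficient of variation was 31.6% in livers and 28.7% in xenografts. The p-values measure the spread between mice. Reads not assigned to a gene (24.7% to 39.4% of each library) were left out of the library sizes.

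Lengths are those of the longest CCDS transcript in GENCODE M21. Exons of 8 members overlap another counted gene, and 11 members have a transcript of another gene at 95% identity or more over at least 250 bases.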

Additional observations from a re-analysis of the deposited data

Results flagged for a closer look

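For 7 of 42 subunit genes the effect of the No-Trp diet differed between the models by the interaction term of the edgeR fit over 12 libraries. That is 16.7% of the members, near the 15.6% of all 15472 genes tested. Given as the log2 effect in xenografts minus that in livers, the values were -0.61 for Psmc1 (adjusted p = 0.0433), -0.62 for Psmc4 (adjusted p = 0.046) and -0.82 for Psmd4 (adjusted p = 0.0385) in the base. They were -0.84 for the lid gene Psmd8 (adjusted p = 0.0168), -1.01 for the chaperone Psmd9 (adjusted p = 0.0137), -0.73 for the activator Psme4 (adjusted p = 0.0433) and 0.81 for the activator Psme3 (adjusted p = 0.0438). With 1 library left out, Psmd8 and Psmd9 passed in 12 of 12 fits, Psmd4 in 4, Psme3 and Psme4 in 3 each and Psmc1 and Psmc4 in 1 each. In each of the 7 the liver diet groups did not overlap, and the xenograft groups did. This describes the same values that gave the calls and is no separate support. Of all genes, 48.6% were without overlap in livers and 22.6% in xenografts. Model, host and tissue cannot be told apart in this difference.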

How the results depend on the processing

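The count of members past the test in livers (2) was 0 with a log2 fold change of at least 1, 5 with DESeq2 (Psmb10, Psmc1, Psmd8, Psmd9 and Psme3), 0 with library totals, 6 with the resubmission mark as a covariate and 7 in one fit over all libraries, and 0 to 3 without 1 library (0 without 101, 103 or 105). In xenografts it was 0 under every setting run. For the difference of the diet effects (7) it was 1 with the fold threshold, 12 with DESeq2, 1 with library totals, 3 without a filter and 3 with the resubmission covariate, and 2 to 6 without 1 library. Between models on the control diet (15) it was 3 with the fold threshold and 12 to 16 without 1 library. On the No-Trp diet (26) it was 2 with the fold threshold, 9 with library totals and 21 to 27 without 1 library. The share of all genes past the test moved in the fits without 1 library too. It ran from 0.0562% to 28.9% in livers and from 6.15% to 18.7% for the difference of the diet effects. Between models it ran from 52.2% to 60.4% on the control diet and from 53.1% to 59.8% on the No-Trp diet. Between models on the No-Trp diet, library totals reversed 4 differences among the members past the test in either scaling. These were Psma1 to 0.0398, Psmd12 to 0.10, Psmd3 to 0.17 and Psmd5 to 0.49 (adjusted p = 0.0359), with -0.04 for Psmd5 in the main scaling. Called or not, 35 of the 42 members lay below 0 in the main scaling and 23 with library totals. That scaling shifts every gene, and the members' median minus that of all genes stayed at 0.12 to 0.14 in livers and at -0.22 in xenografts across the scalings. Other causes were not tested. No paired analysis was possible because the groups compared share no mouse number.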

Other observations

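Spread between mice of a group differed by particle. In control livers the coefficient of variation had a median of 7.82% over the 17 base and lid genes, 18.1% over the 14 constitutive core genes and 48.8% over the 3 immunoproteasome genes. In No-Trp livers the medians were 8.24%, 13.1% and 47.6%, in control xenografts 9.77%, 14.8% and 24%, and in No-Trp xenografts 6.54%, 6.23% and 31.4%. Psmb8 had the highest coefficient in control livers (49.1%), Psmb10 in No-Trp livers (52.7%) and in control xenografts (37.1%), and Psmb9 in No-Trp xenografts (38.3%).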
